A study of Rattus norvegicus with 8 samples.

Results

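Genes that make, degrade and read cyclic nucleotides were followed in the orbitofrontal cortex of adult male rats of the outbred Sprague-Dawley strain 7 days after a local siRNA infusion. Members were the protein-coding entries of the count table whose symbol is Adcy with a number, Pde with a number, Prkac or Prkar, or Akap with a number. Left out was 1 matching symbol, which is not reported here. Members came to 57 of the 34298 genes: 10 adenylyl cyclases, 24 phosphodiesterase symbols, 6 subunits of protein kinase A and 17 anchoring proteins. The study infused 1 µl of JetPEI transfection reagent with 5 ng of siRNA, and all 8 rats were 8 weeks old on arrival. Control rats received a scrambled siRNA (4 rats, replicates 1, 3, 4 and 5), and in the other 4 it was directed at circNrxn3, a circle made from the neurexin 3 gene, across its backsplice junction (replicates 1 to 4). The latter are called knockdown libraries after their labels. The counts come from poly-T selected RNA and do not measure the circle, so they do not check its loss. The antisense strand defines the treatment and is shown with its seed (bases 2 to 8) in capitals.
circNrxn3 siRNA, antisense strand: uUCCUGUCuagccuuuggauu

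Cyclic AMP is made from ATP by adenylyl cyclases, which G proteins switch on or off, and it is broken down by phosphodiesterases. Its main reader is protein kinase A, a complex of catalytic subunits held inactive by regulatory subunits until these bind cyclic AMP. Anchoring proteins hold the kinase at membranes, organelles or the postsynaptic density, often together with a phosphodiesterase. In cortical neurons the pathway carries signals of dopamine, noradrenaline and other modulators to ion channels, synapses and the transcription factor CREB.

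Libraries held 27589883 to 35221782 counts. Of the excitatory cortical neuron markers Slc17a7, Camk2a, Tbr1 and Neurod6, all 4 were detected in every library. Markers of choroid plexus summed to 0.284 to 2.84 CPM (counts scaled to library size). Among the 9 striatal projection neuron markers Isl1 was at 0, Drd1 was at 1.40 to 3.10 CPM and Adora2a at 4.03 to 7.46 CPM. Libraries differed in a measure of transcript length, the log2 level of genes with models over 3618 bp relative to genes under 1524 bp, each against its mean. It was lowest in scrambled replicates 4 and 3 and knockdown replicate 3 (−0.19, −0.16 and −0.08) and ran from −0.02 to 0.20 in the other 5. Group means were −0.07 ± 0.13 after scrambled and 0.08 ± 0.13 after circNrxn3 siRNA (SD, n = 4 each, 2-sided exact permutation p = 0.143). Red blood cell markers summed to 277 to 989.8 CPM after scrambled and 160.4 to 311 CPM after circNrxn3 siRNA; all 3 were lower at an unadjusted p under 0.05. The part of either measure in the results that follow was not tested.

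No member passed the test between the siRNA groups. The smallest unadjusted p were those of Akap12, Pde3b, Pde8a and Pde12, all with higher means in knockdown libraries, by 1.31-fold, 1.40-fold, 1.61-fold and 1.51-fold. The edgeR quasi-likelihood test called 0 of the 51 members that passed the filter on low counts, and 0% of all 16573 genes tested, at a Benjamini-Hochberg adjusted p threshold of 0.05. Members' adjusted p ran from 0.833 to 0.9996. DESeq2 and limma-voom likewise called 0 members. At an unadjusted p under 0.05 there were 4 members, 7.84% of those tested, beside 5.59% of all genes, so their share lay near the background. All 4 were higher, as were 2.38% of all genes, and 0 members were lower, beside 3.2% of all genes. The log2 fold change of knockdown over scrambled libraries was above 0 in 36 of 51 members (70.6%), beside 51.3% of all genes, with a median of 0.10 beside 0.01. Above 0 were 32 of 51 once a trend with gene length was taken out library by library. In the 6 libraries numbered 1, 3 and 4 it was 30 of 51 with replicate number as a block and 29 of 51 without it. The 51.3% of all genes belongs to the main fit, and no such share was taken in the others. In the 5 libraries that are left when the 3 lowest in long transcripts are dropped, 34 of 51 were above 0. In those 5 libraries, of the 4 members with the smallest p Akap12 alone had an unadjusted p under 0.05. Groups did not overlap in 2 members, Akap12 and Pde3b, where 3.48% of all genes did not overlap. Both lay above the scrambled values, as did 1.82% of all genes, and 0 members lay below them, as did 1.65% of all genes. In bulk tissue, fewer cells of a type and less RNA per cell cannot be told apart.

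**Figure D1:**
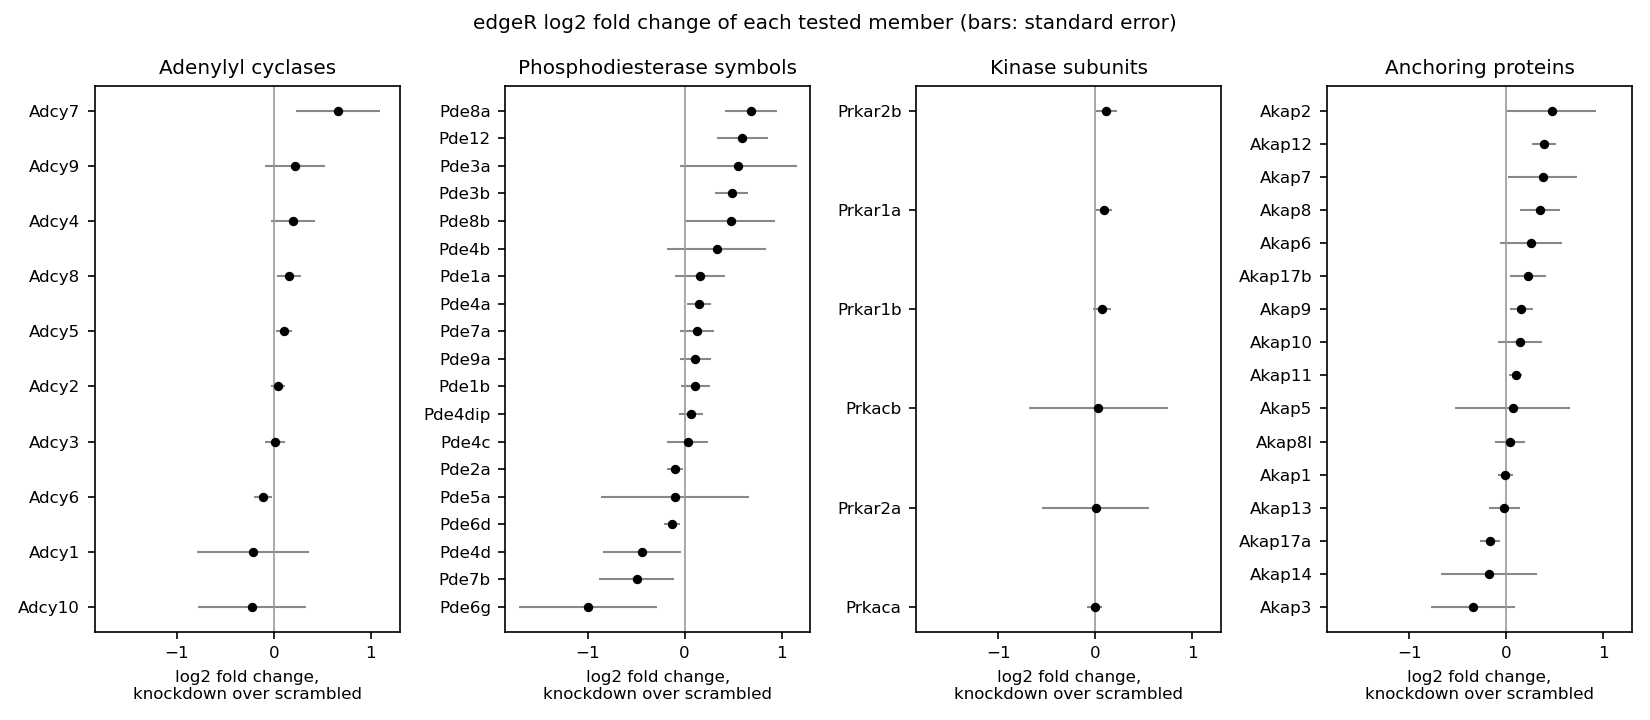
edgeR log2 fold change of knockdown over scrambled libraries (x axis) for each of the 51 tested members, in 4 panels by class; points are estimates and bars 1 SE. Kinase subunits lie between −0.01 and 0.11. The widest bar is that of Pde5a (SE 0.76), which had 2 to 51 reads a library. Prkacb (SE 0.72) and Adcy1 (SE 0.58), whose libraries differ widely within a group, also have wide bars.

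Cyclases were dominated by Adcy2, and none of the 10 passed the test or reached an unadjusted p under 0.05. Their median log2 fold change was 0.07, with 7 above and 3 below 0. FPKM (fragments scaled for gene length and library depth) compares genes only as far as each deposited gene model holds the whole transcript. That was not checked for any class. On this scale Adcy2 stood at 56.2 ± 2.78 (SD over 8 libraries). Adcy2 is a cyclase that G protein beta-gamma subunits stimulate, and it made up 57.2% ± 2.26 of summed cyclase FPKM after scrambled and 57.2% ± 2.23 after circNrxn3 siRNA (SD, n = 4 each). Adcy5, which calcium and inhibitory G proteins hold down and which is abundant in striatum, followed at 16.5 FPKM. Adcy3, a cyclase of neuronal cilia, was at 9.72 FPKM and the calcium-inhibited Adcy6 at 6.17 FPKM. The ranges over libraries of these first 4 cyclases did not overlap. From Adcy6 down to Adcy4 each range overlapped that of the next cyclase, and Adcy7 and Adcy10 were both near 0.2 FPKM (0.203 and 0.196).

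Within the cyclases, Adcy2 was also the steadiest gene. Its level was 189.8, 166, 187 and 176 CPM in scrambled replicates 1, 3, 4 and 5 and 197, 176, 187 and 180.4 CPM in knockdown replicates 1 to 4. The groups overlapped throughout, and the log2 fold change was 0.04, standard error (SE) 0.07 (edgeR adjusted p = 0.927). Adcy5 was at 77.9 ± 7.90 CPM after scrambled siRNA and 83.6 ± 4.30 CPM after circNrxn3 siRNA (SD over 4 libraries), and its log2 fold change was 0.10 (SE 0.08), or −0.03 without the 3 libraries lowest in long transcripts. Summed striatal markers ran from 479 to 612 CPM in scrambled and 449 to 530.5 CPM in knockdown libraries, with 2 of 8 tested above 0, and their part in the Adcy5 values was not tested. Adcy3 had a log2 fold change of 0.01, and its sign turned with RLE scaling (−0.0006). Its gene model overlaps that of Cenpo on the opposite strand, which averaged 0.305 CPM.

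Of the remaining cyclases, the 2 with the smallest p at higher levels were Adcy7 and Adcy8. Adcy8, which calcium and calmodulin stimulate, was at 11.3 ± 1.35 and 12.6 ± 0.731 CPM (SD, n = 4 each). The groups overlapped through scrambled replicate 5 (log2 fold change 0.15, SE 0.13). Adcy7 rested on few reads, 0.663 ± 0.307 against 1.05 ± 0.239 CPM (SD, n = 4 each). At lower levels were Adcy6 (−0.11, SE 0.09) and Adcy10, the soluble cyclase that bicarbonate stimulates (−0.22, SE 0.55). Adcy1, the other cyclase that calcium and calmodulin stimulate, varied widely: it was at 19.6, 9.36, 5.48 and 12.1 CPM after scrambled siRNA and 10.1, 16.4, 2.16 and 11.5 CPM after circNrxn3 siRNA. Its highest value, in scrambled replicate 1, was 9.06 times the lowest, in knockdown replicate 3, and those came from 547 and 60 reads.

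**Figure D2:**
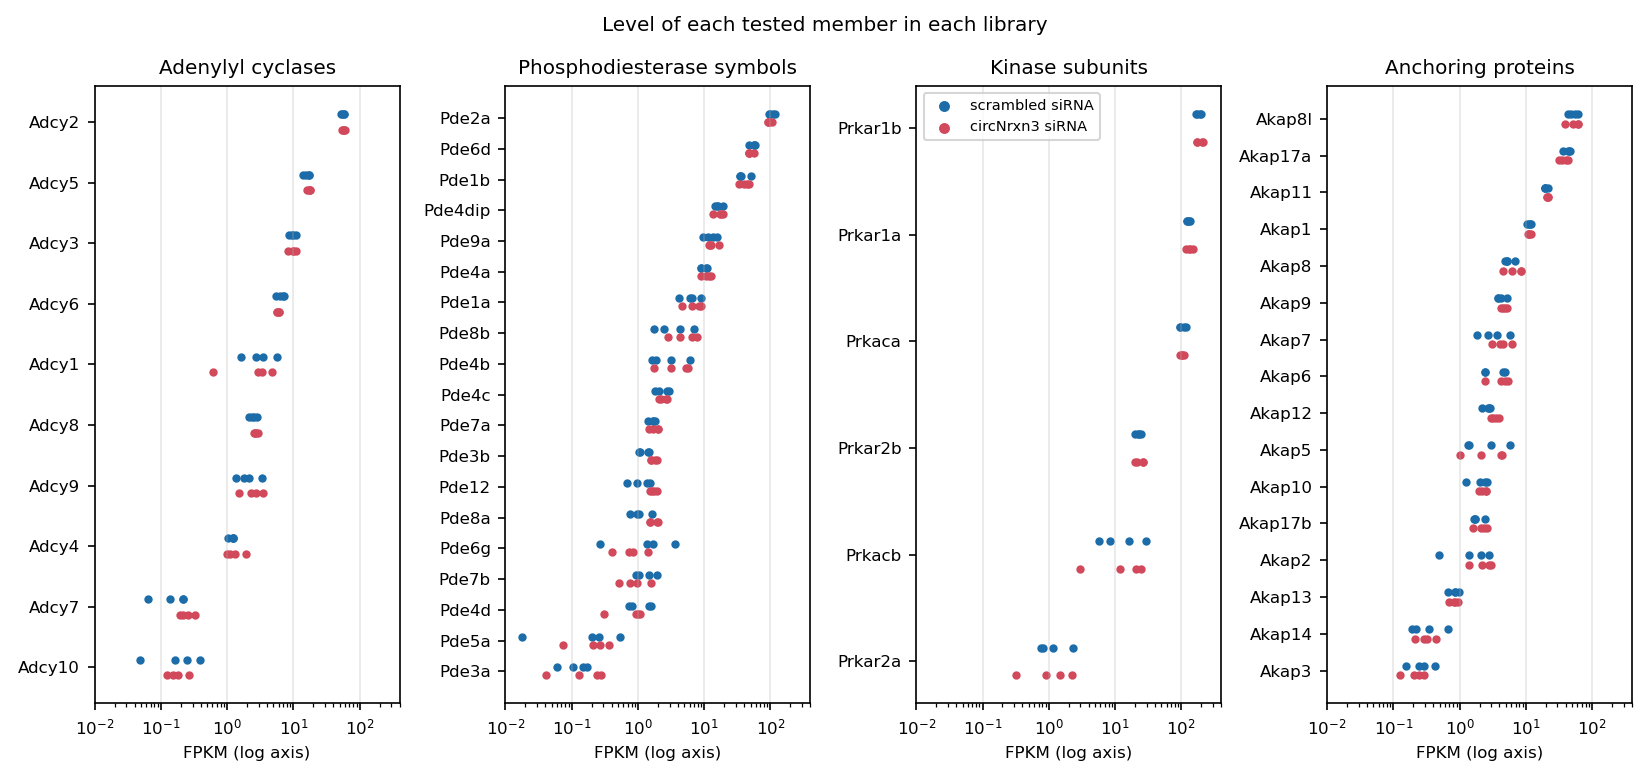
FPKM on a log axis for each of the 51 tested members in each of the 8 libraries (blue, scrambled siRNA; red, circNrxn3 siRNA), in 4 panels by class and ordered by mean level. Prkar1b, Prkar1a, Prkaca and Pde2a lie at or above 91.8 FPKM in every library, whereas Prkacb spreads from 2.92 to 29.1 FPKM.

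Pde2a led the phosphodiesterase symbols followed here in mRNA level. Of 24 symbols 19 passed the filter, 13 with a log2 fold change above 0 and 6 below, with a median of 0.11 and 0 called. Some of these symbols are not cyclic nucleotide phosphodiesterases in themselves: Pde4dip encodes a centrosomal and Golgi scaffold, Pde6d a chaperone of prenylated proteins, Pde6g and Pde6h inhibitory subunits of the photoreceptor enzyme, and Pde12 a mitochondrial exonuclease. Pde2a, an enzyme for both cyclic nucleotides that cyclic GMP stimulates, was at 101 ± 8.67 FPKM (SD over 8 libraries). Pde6d and Pde1b followed at 52.0 and 40.2 FPKM, with ranges that overlapped each other and not that of Pde2a. Shares were taken of the FPKM summed over the remaining phosphodiesterase members, with those symbols left out. The matching symbol not reported here is not in that sum. Pde2a made up 55.5% ± 3.35 of it after scrambled and 51.3% ± 1.97 after circNrxn3 siRNA (SD, n = 4 each). The calcium- and calmodulin-stimulated Pde1b gave 20.5% ± 2.58 and 21.9% ± 2.25. The 4 genes of the cyclic AMP-specific Pde4 family, the targets of rolipram, together gave 8.85% ± 1.22 and 9.59% ± 0.736. Pde1c, Pde6a, Pde6b, Pde6c and Pde6h did not pass the filter.

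Below these lay a graded series. After Pde1b, whose range lay above the next, each range overlapped that of its neighbour down to the lowest gene. The scaffold Pde4dip was at 16.7 FPKM, the cyclic GMP-specific Pde9a at 12.9 and Pde4a at 10.4 FPKM. Pde1a was at 6.76 FPKM, Pde8b at 4.59, Pde4b at 3.59 and Pde4c at 2.41 FPKM. The cyclic AMP-specific Pde7a and Pde7b were at 1.73 and 1.15 FPKM, Pde3b at 1.49, Pde8a at 1.42 and Pde4d at 0.991 FPKM. The cyclic GMP-specific Pde5a, the target of sildenafil, was at 0.240 FPKM and Pde3a at 0.146 FPKM, where single libraries held few reads. Those of these genes that are not treated further were named after their values were seen.

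Pde2a (ENSRNOG00000019560, chromosome 1, 166534643 to 166626158, rn6) was at 479.7, 507, 436 and 418 CPM after scrambled siRNA and 409, 475, 421 and 412 CPM after circNrxn3 siRNA. Its highest 2 values were those of scrambled replicates 1 and 3, but knockdown replicate 2 lay almost as high, and the log2 fold change was −0.10, SE 0.08 (edgeR adjusted p = 0.859). Pde1b was at 71.5 ± 14.3 CPM after scrambled siRNA and 77.0 ± 11.9 CPM after circNrxn3 siRNA (SD over 4 libraries), and its log2 fold change was 0.11 (SE 0.15). Pde6d had a log2 fold change of −0.13, SE 0.08. Its model lies within 1 kb of that of Cops7b on the opposite strand.

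Among phosphodiesterases at higher levels the smallest p were those of Pde3b and Pde8a. Pde3b, a cyclic AMP-degrading enzyme that cyclic GMP inhibits and that insulin activates in fat and liver (ENSRNOG00000011417, chromosome 1, 183892841 to 184078071, rn6), was at 6.44, 6.203, 4.62 and 4.72 CPM after scrambled siRNA and 7.05, 8.62, 8.02 and 7.06 CPM after circNrxn3 siRNA. All 4 knockdown values lay above all 4 scrambled values. The log2 fold change was 0.48, SE 0.17 (edgeR unadjusted p = 0.0188, adjusted p = 0.833). Pde8a, a cyclic AMP-specific enzyme of high affinity, was at 2.65, 2.45, 1.94 and 4.21 CPM after scrambled siRNA and 5.19, 5.06, 3.92 and 3.88 CPM after circNrxn3 siRNA. Scrambled replicate 5 alone reached into the knockdown range (log2 fold change 0.68, SE 0.26, edgeR unadjusted p = 0.0268, adjusted p = 0.833). Pde12, named after its values were seen, had a log2 fold change of 0.59, SE 0.26 (edgeR unadjusted p = 0.0464, adjusted p = 0.833). In the 5 libraries left without those 3, the log2 fold changes were 0.45 for Pde3b, 0.46 for Pde8a and 0.26 for Pde12.

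At lower levels the smallest p were those of Pde6d and Pde6g. Pde6g was at 0.0716 to 0.954 CPM in scrambled and 0.108 to 0.378 CPM in knockdown libraries, from 2 to 32 reads a library (log2 fold change −0.99, SE 0.71). Pde4b and Pde8b, a pair of cyclic AMP-specific enzymes named after their values were seen, differed far more between libraries than between groups. Pde4b was at 20.5, 5.43, 6.14 and 10.5 CPM after scrambled siRNA and 17.8, 19.2, 5.76 and 10.5 CPM after circNrxn3 siRNA. Scrambled replicates 3 and 4 and knockdown replicate 3 were its lowest 3. They were also the lowest 3 of Pde8b, which ran from 4.50 to 19.8 CPM (log2 fold change 0.47, SE 0.46). The fold change of Pde8b was 0.92 when scrambled replicate 1 was left out, and 0.23, 0.31 and 0.24 when scrambled replicate 3, scrambled replicate 4 or knockdown replicate 2 was. Pde4a, of the same family, stayed between 22.8 and 32.0 CPM.

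**Figure D3:**
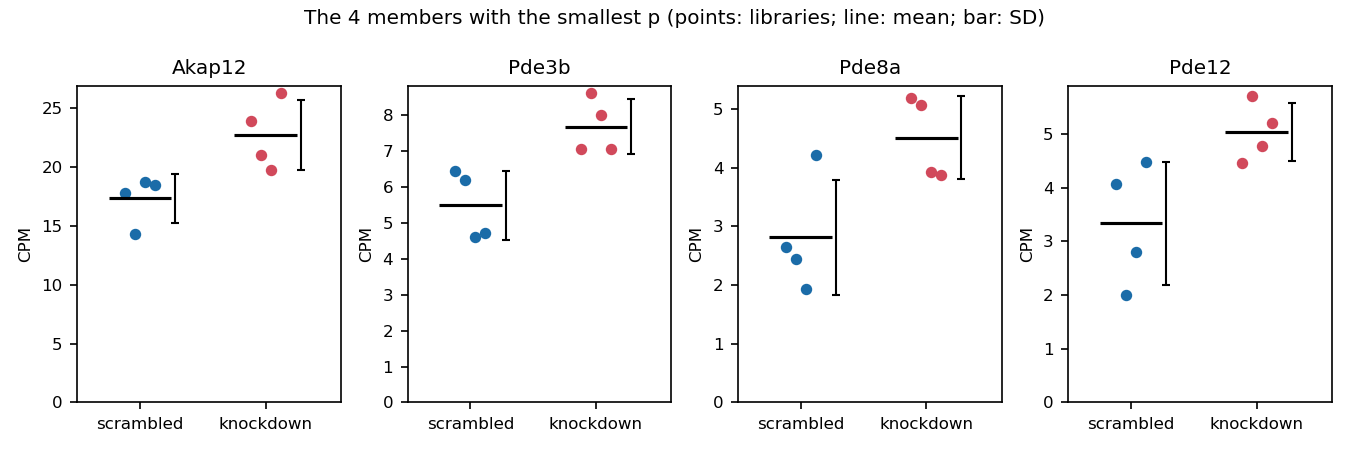
CPM (y axis, from 0) of the 4 members with an unadjusted p under 0.05, by siRNA group; each point is 1 library, the line is the mean and the bar the SD (n = 4 each). Knockdown and scrambled points do not overlap for Akap12 and Pde3b and overlap for Pde8a and Pde12; each has an edgeR adjusted p of 0.833.

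Protein kinase A mRNA was chiefly Prkar1b, Prkar1a and Prkaca, and no subunit passed the test between the groups. The median log2 fold change of the 6 subunits was 0.05, and none had an unadjusted p under 0.05. That median ran from −0.03 in the 6 libraries numbered 1, 3 and 4 to 0.14 without scrambled replicate 1. Prkar1b and Prkar1a, the regulatory subunits of type I kinase, were at 186 and 130.2 FPKM and the catalytic Prkaca at 103 FPKM. Prkar2b, the type II regulatory subunit of neurons, was at 23.0 FPKM, Prkacb, the second catalytic subunit, at 15.0 and Prkar2a at 1.25 FPKM. Ranges over the 8 libraries overlapped between Prkar2b and Prkacb and between no other neighbours in this order. Type I genes gave 92.9% ± 0.665 of regulatory subunit FPKM after scrambled and 92.8% ± 1.07 after circNrxn3 siRNA (SD, n = 4 each). FPKM rests on the length of each deposited gene model, 1077 bp for Prkar1b, 1122 bp for Prkacb and 2220 bp for Prkaca, and whether these hold all untranslated sequence was not checked.

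The catalytic genes parted in how far they varied. Prkaca (ENSRNOG00000005257, chromosome 19, 25095089 to 25118860, rn6) was at 216, 257, 241 and 212 CPM after scrambled siRNA and 218, 232, 244 and 226 CPM after circNrxn3 siRNA, and its highest 3 values were those of scrambled replicates 3 and 4 and knockdown replicate 3. Prkacb (ENSRNOG00000004978, chromosome 2, 252605307 to 252691886, rn6) was at 33.0, 9.42, 6.47 and 18.5 CPM after scrambled siRNA and 23.9, 28.1, 3.31 and 13.5 CPM after circNrxn3 siRNA, and the same 3 libraries held its lowest values. Both groups spanned most of this range. Its log2 fold change was 0.03, SE 0.72 (edgeR adjusted p = 0.995), against −0.01, SE 0.08, for Prkaca, and the sign of each turned without those 3 libraries (−0.24 for Prkacb, 0.08 for Prkaca). Reads of Prkacb ran from 92 in knockdown replicate 3 to 923 in scrambled replicate 1, a 9.98-fold range on the CPM scale. Its within-group SD of 1.23 on the log2 scale exceeded that of 99.2% of genes with a mean of at least 5 CPM, whose median SD was 0.16. Prkacb gave 23.2%, 6.76%, 5.05% and 14.7% of the FPKM of both catalytic genes after scrambled and 17.8%, 19.3%, 2.61% and 10.5% after circNrxn3 siRNA.

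**Figure D4:**
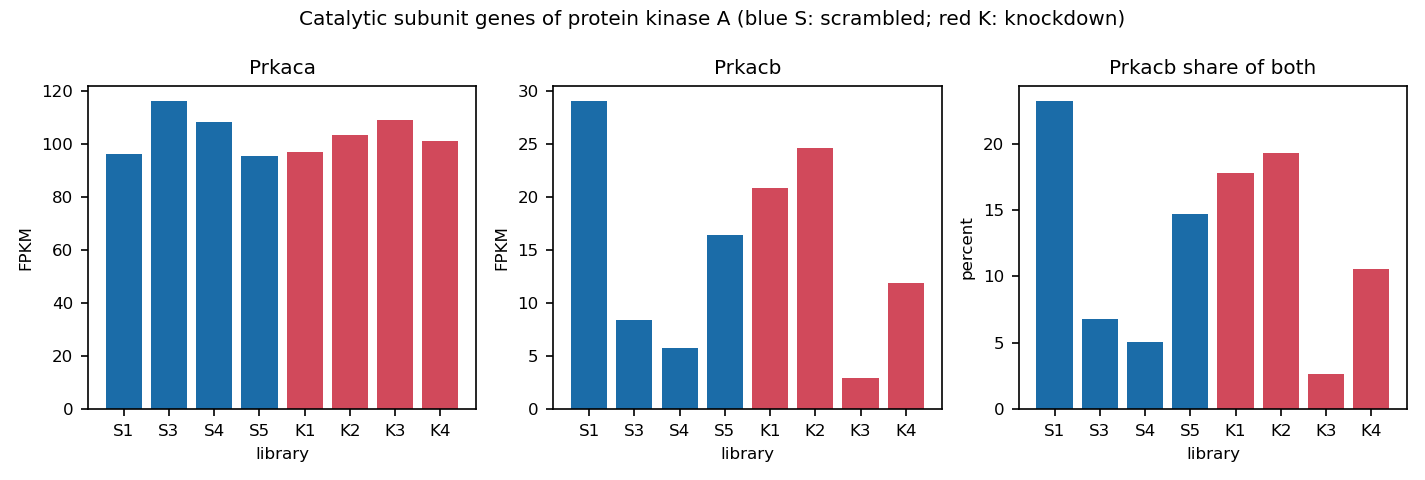
FPKM of Prkaca and of Prkacb, and the percentage of their sum that is Prkacb, in each library (bars from 0; blue S, scrambled replicates; red K, knockdown replicates). Prkaca stays between 95.2 and 116 FPKM while Prkacb runs from 2.92 to 29.1 FPKM, with low and high bars in both groups.

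Prkaca and Prkacb encode closely related enzymes but had their highest and lowest values, respectively, in the same 3 libraries, so their promoters are shown. That of Akap17a is shown too. Among the 43 members with a matched promoter, it alone held a full cyclic AMP response element, the site of CREB. Windows are RefSeq sequence from 250 bases before to 50 after the annotated start, and capitals mark the element TGACGTCA or its TGACG part on either strand; the full element contains the part on both strands.
Prkaca promoter (chr19:41083140-41083439, GRCr8, minus strand): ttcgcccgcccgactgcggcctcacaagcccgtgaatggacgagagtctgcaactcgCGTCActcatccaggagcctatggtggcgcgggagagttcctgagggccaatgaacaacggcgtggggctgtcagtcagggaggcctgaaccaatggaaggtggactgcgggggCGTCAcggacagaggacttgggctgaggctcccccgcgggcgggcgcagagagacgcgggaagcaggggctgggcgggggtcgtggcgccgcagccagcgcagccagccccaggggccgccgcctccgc
Prkacb promoter (chr2:238386266-238386565, GRCr8, minus strand): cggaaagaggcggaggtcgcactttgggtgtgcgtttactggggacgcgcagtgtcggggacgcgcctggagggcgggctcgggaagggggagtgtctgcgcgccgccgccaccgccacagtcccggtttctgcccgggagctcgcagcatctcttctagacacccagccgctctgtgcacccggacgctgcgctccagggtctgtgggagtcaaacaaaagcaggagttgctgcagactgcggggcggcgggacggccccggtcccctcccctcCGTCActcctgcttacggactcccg
Akap17a promoter (chr12:21428198-21428497, GRCr8, minus strand): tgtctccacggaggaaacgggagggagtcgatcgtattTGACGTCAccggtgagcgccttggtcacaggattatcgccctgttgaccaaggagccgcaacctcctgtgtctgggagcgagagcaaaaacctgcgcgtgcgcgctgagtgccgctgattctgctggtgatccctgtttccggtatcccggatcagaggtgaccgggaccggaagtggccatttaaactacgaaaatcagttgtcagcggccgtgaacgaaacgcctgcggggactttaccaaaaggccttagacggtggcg
Of the 57 members 43 matched a promoter by symbol. The full element was in 1 of 43 (2.33%), beside 1.83% of 33469 rat promoters of the same length, and the TGACG part in 10 of 43 (23.3%), beside 21.2%. Prkaca held 2 such parts and Prkacb 1. Median GC content was 59.0% in the members and 51.7% in all promoters. A match describes letters only and does not show a site in use.

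Of the regulatory subunits, Prkar2a differed most between libraries. Prkar1a was at 182 ± 10.7 CPM after scrambled siRNA and 194 ± 16.8 CPM after circNrxn3 siRNA, and Prkar1b at 197 ± 16.7 and 207 ± 22.6 CPM (SD, n = 4 each). Their log2 fold changes were 0.09 and 0.07, with SEs of 0.08 and 0.09. Prkar2b, which directs kinase to dendritic anchors, had 0.11, SE 0.11. Prkar2a was at 5.58, 1.998, 1.82 and 2.85 CPM after scrambled siRNA and 3.65, 5.58, 0.792 and 2.21 CPM after circNrxn3 siRNA. Its lowest 3 libraries were those lowest in Prkacb, and its group means were both 3.06 CPM (log2 fold change 0.003, SE 0.55). That fold change was below 0 in 16 of 23 alternative fits, over a range of −0.53 to 0.46.

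Anchoring proteins were the class with the lowest single p. Of 17 genes 16 passed the filter, 11 with a log2 fold change above 0 and 5 below, with a median of 0.12 and 0 called. Akap12, or gravin, a membrane scaffold for protein kinases A and C and the beta-adrenergic receptor, was at 17.9, 14.3, 18.8 and 18.5 CPM after scrambled siRNA and 23.9, 21.0, 19.8 and 26.3 CPM after circNrxn3 siRNA. All 4 knockdown values lay above all 4 scrambled values. The log2 fold change was 0.39, SE 0.13 (edgeR unadjusted p = 0.0105, adjusted p = 0.833). Akap12 (ENSRNOG00000019549, chromosome 1, 40816107 to 40906581, rn6) had an unadjusted p under 0.05 in all 23 alternative fits, with log2 fold changes of 0.28 to 0.46 and adjusted p of 0.185 to 0.9999. Without the 3 libraries lowest in long transcripts it was 0.39. Summed mural and endothelial markers, which overlapped between the groups, ran from 69.3 to 93.2 and 31.2 to 47.0 CPM in scrambled and from 61.1 to 87.1 and 39.2 to 54.8 CPM in knockdown libraries. Cldn5 was listed at 0 in every library and Pecam1 was not found by symbol, and the part of these cells in the Akap12 values was not tested.

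The most abundant anchors were Akap8l, Akap17a and Akap11. Akap8l, a nuclear matrix protein, was at 52.9 FPKM, the splicing-associated Akap17a at 40.1 and Akap11, which binds the kinase and glycogen synthase kinase, at 20.5 FPKM. Akap8l and Akap17a overlapped in range, and Akap11 lay apart from both its neighbours. Akap11 was the steadiest of all members, at 159, 140.2, 143 and 142 CPM after scrambled siRNA and 161, 159, 151 and 153 CPM after circNrxn3 siRNA. Its lower 3 scrambled values lay under every knockdown value and scrambled replicate 1 within the knockdown range (log2 fold change 0.10, SE 0.07). Akap17a, at 137 ± 13.4 and 121 ± 14.9 CPM (SD, n = 4 each), had a log2 fold change of −0.17, SE 0.10. Akap3, known from sperm, was under 1.32 CPM in every library. Akap8, a nuclear anchor, had a log2 fold change of 0.35 (SE 0.21). Its gene model overlaps that of Akap8l on the same strand, so reads between them are uncertain. Akap4 had 0 counts in all 8 libraries.

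Other anchors followed in order of level. Akap1, which holds the kinase at the outer mitochondrial membrane, was at 11.3 FPKM with a range apart from both neighbours. Akap8, at 6.21 FPKM, opened a run in which each range overlapped the next down to Akap3. Within it the centrosome and Golgi anchor Akap9 was at 4.48 FPKM, Akap7 at 3.97, Akap6, an anchor of the nuclear envelope, at 3.87 and Akap12 at 3.02 FPKM. Akap5 was at 2.88 FPKM, Akap10 at 2.17 and Akap13 at 0.834 FPKM. Akap6 was at 43.0, 21.5, 21.1 and 40.4 CPM after scrambled siRNA and 43.0, 47.5, 21.7 and 37.8 CPM after circNrxn3 siRNA. The same 3 libraries were low, scrambled replicates 3 and 4 and knockdown replicate 3. Akap1, Akap6, Akap7, Akap9, Akap10 and Akap13 were named after their values were seen.

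Akap5 and Akap2 varied most between libraries among anchors with a mean of at least 5 CPM. Akap5, which ties kinase A, calcineurin and AMPA receptors together at the postsynaptic density, was at 15.5, 3.58, 3.76 and 7.95 CPM after scrambled siRNA and 11.7, 11.98, 2.73 and 5.67 CPM after circNrxn3 siRNA. The log2 fold change was 0.07, SE 0.59, and −0.25 in the 5 libraries left without scrambled replicates 3 and 4 and knockdown replicate 3. Akap2 ran from 1.91 CPM in scrambled replicate 3 to 11.6 CPM in knockdown replicate 2, with a log2 fold change of 0.47 and an SE of 0.46. That of Akap2 was 0.81 without scrambled replicate 1 and 0.16 without scrambled replicate 3. Akap5, Akap2 and Adcy1 were named after their values were seen.

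Across the classes, 14 of 51 tested members (27.5%) had their 3 lowest values in scrambled replicates 3 and 4 and knockdown replicate 3, the libraries lowest in the length measure, beside 10.3% of all genes. They were the cyclases Adcy1 and Adcy9, the phosphodiesterase symbols Pde1b, Pde4b, Pde4d, Pde4dip and Pde8b, the kinase subunits Prkacb and Prkar2a, and the anchors Akap2, Akap5, Akap6, Akap8 and Akap10. Their 3 highest values were there in Prkaca, Pde9a and Akap14 (5.88%, beside 6.94% of all genes). Of 37 members with a mean of at least 5 CPM, 25 had a within-group SD above the median of such genes. Camk2a, an excitatory neuron marker, was likewise at 189, 159 and 168 CPM in those libraries and at 215 to 431 CPM in the others. Its gene model has 1514 bp, and those of the 14 members ran from 1122 bp (Prkacb) to 8824 bp (Akap6). The length measure took models under 1524 bp as short and over 3618 bp as long. What the 3 libraries share beyond these values was not tested.

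**Figure D5:**
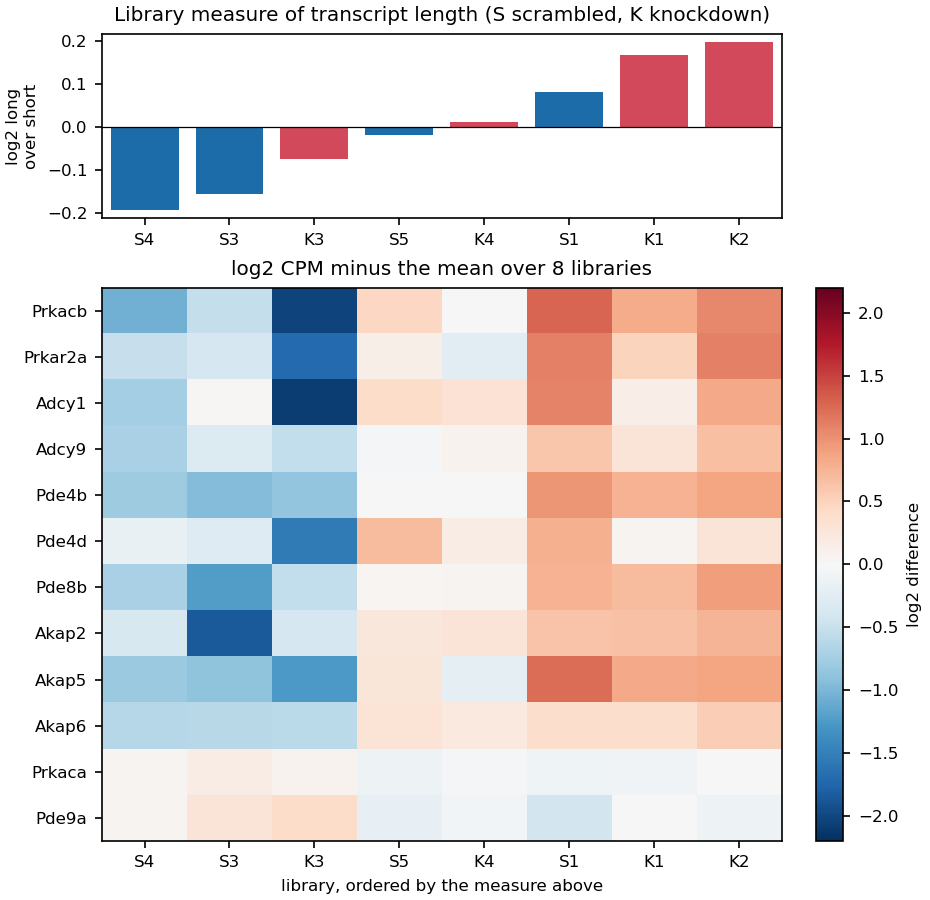
Top, the log2 level of long over short gene models in each library, members left out (S scrambled, K knockdown); bottom, log2 CPM of 12 members minus each gene's mean over the 8 libraries, in the same library order. From Prkacb to Akap6 the members are lowest in the 3 leftmost libraries, and Prkaca and Pde9a are highest there. The 12 were picked for these patterns, out of the 14 lowest and 3 highest there among the 51 tested members.

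Of the other genes of the pathway, in 6 lists chosen with earlier results of these data known, none was called by edgeR. Over all genes tested, 51.3% had a log2 fold change above 0 and 5.59% an unadjusted p under 0.05. The G protein alpha subunits had 6 of 8 tested gene models above 0 (median 0.15). Gnas entered with a model at −0.08 and another at 0.08. Of the 8 models, 2 had an unadjusted p under 0.05 and are named for it. Gnai2, an inhibitory subunit, was at 427, 481, 439.8 and 433 CPM after scrambled siRNA and 342, 374, 389 and 333 CPM after circNrxn3 siRNA. Its groups did not overlap, as in 3.48% of all genes. Its log2 fold change was −0.31, SE 0.08 (edgeR adjusted p = 0.833, DESeq2 adjusted p = 0.0266, 0.0266 to 0.9999 over the alternatives). Gnaz, another inhibitory subunit, was at 68.1 ± 3.87 and 78.7 ± 8.58 CPM (SD over 4 libraries), and its log2 fold change was 0.21 (SE 0.09).

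All 3 inhibitors of the kinase were tested. Pkig was at 198, 209, 204 and 186 CPM after scrambled siRNA and 161, 159, 175 and 170.3 CPM after circNrxn3 siRNA. Its groups again did not overlap, as in 3.48% of all genes. The log2 fold change of Pkig was −0.26, SE 0.07 (edgeR adjusted p = 0.833, DESeq2 adjusted p = 0.0363, 0.0363 to 0.9999 over the alternatives). It was −0.19 with the length trend removed. Pkia, another inhibitor, was at 8.42 to 28.7 CPM and lowest in knockdown replicate 3 and scrambled replicates 4 and 3.

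Guanylate cyclases and cyclic GMP kinases had 6 of 7 tested above 0 (median 0.12) and no unadjusted p under 0.05. Other effectors had 4 of 8 above 0 (median 0.02). Rapgef4, an exchange factor that cyclic AMP activates, was at 59.1 ± 10.0 and 82.2 ± 14.9 CPM (SD over 4 libraries), and its log2 fold change was 0.48 (SE 0.15). The pacemaker channel Hcn2 was at 316 ± 39.0 and 256 ± 28.2 CPM (SD over 4 libraries), and its log2 fold change was −0.30 (SE 0.11). CREB and its coactivators had 5 of 8 above 0 (median 0.02). Target genes of CREB had 8 of 11 below 0 (median −0.17), where Nr4a2, an orphan nuclear receptor, had 0.54, SE 0.20. These 3 genes had an edgeR adjusted p of 0.833 each and were named because their unadjusted p was under 0.05.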

How the data were processed

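Samples were grouped by their titles. Per the submitters' processing notes the tools were fastp, HISAT2 2.0.5, StringTie 1.3.3b and featureCounts 1.5.0-p3 with build rn6; their roles and use of strand are not given in the sources used here. The authors deposited read counts per gene without normalization, and FPKM values; the library totals these imply scaled with median-of-ratios size factors. Depth was 27589883 to 35221782 counts per library.

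All genes were fitted with edgeR 4.0.16 in R 4.3.3 (filterByExpr with a minimum count of 10, TMM factors, robust quasi-likelihood F test, 2-sided, Benjamini-Hochberg adjustment over 16573 genes), and the members' rows were read from that fit. The procedure was tested on simulated data. CPM uses the TMM factors, and the standard error is the fold change over the square root of F. P-values measure the spread between the samples of a group, which the labels call biological replicates.

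Named were all kinase subunits and, in each other class, the 3 members highest in FPKM and the 2 with the smallest p in each direction; 1 symbol the pattern matched is not reported here, and other names are said to be chosen after their values were seen. The members and lists were chosen with earlier results of these data known. Alternatives were other scalings, filters, DESeq2 1.42.0, limma-voom (limma 3.58.1), limma on log2(FPKM + 1) and log2(FPKM + 0.1), protein-coding genes only, a removed length trend, a replicate block and libraries left out. Promoters are RefSeq, GRCr8.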

Additional observations from a re-analysis of the deposited data

Results flagged for a closer look

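In groups of 4 libraries, a library was picked out where its gap to the next value took up more of the group's range than Dixon's 95% limit for 4 samples. Of 102 groups, 2 for each of the 51 tested members, 5 met this, and chance gives about 1 in 20. In 4 of them the library was scrambled replicate 1, each time the highest. There Akap11 was at 159 CPM (the others 140.2 to 142.6), Pde1b at 92.8 CPM (62.9 to 66.8), Akap8 at 24.6 CPM (16.7 to 18.05) and Akap17b at 12.4 CPM (8.47 to 8.97). In the knockdown group Pde6d was at 64.4 CPM in replicate 3, above 54.2 to 55.8 CPM in the others.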

How the results depend on the processing

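Members called numbered 0 by edgeR and in each alternative run, beside 4 at an unadjusted p under 0.05. Of all genes, DESeq2 called 18, the fit without scrambled replicates 3 and 4 and knockdown replicate 3 together called 3, and leaving out 1 library gave 0 to 1. Members at an unadjusted p under 0.05 numbered 1 (without scrambled replicate 4) to 7 (without scrambled replicate 1) with 1 library left out, where all genes moved from 3.88% to 10.1%. Without those 3 libraries they numbered 3, Akap12 higher and Adcy6 and Pde4d lower, beside 3.47% of all genes, so Pde3b, Pde8a and Pde12 were no longer among them. Akap12 was under 0.05 in 8 of 8 fits with 1 library left out, Pde3b in 5, Pde8a in 3 and Pde12 in 2. The labels give no meaning to shared replicate numbers 1, 3 and 4; deviations of same-numbered libraries correlated at 0.37, 0.30 and 0.09, which does not establish pairing, and scrambled replicate 4 correlated best with knockdown replicate 3. With the replicate block on these 6 libraries there were 5 members under 0.05, beside 10.1% of all genes, and 0 called; with no replicate block, a fit added after seeing the data, there were 2, beside 3.04% of all genes. Median log2 fold changes over the alternatives ran from 0.0037 to 0.1499 in cyclases, 0.0366 to 0.1832 in phosphodiesterase symbols, −0.0345 to 0.1441 in kinase subunits and 0.0536 to 0.2742 in anchors, and without the 3 libraries together they were 0.03, 0.05, 0.08 and 0.06. The kinase subunit median was below 0 with the replicate block (−0.0336), with no replicate block on the same libraries (−0.0345) and without knockdown replicate 2 (−7e-04). Of the 37 genes whose fold changes were followed through the alternatives, 23 kept their sign in each and 14 turned. Other genes with values here were not followed.

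Signs turned at the following log2 fold changes, and the cause was not tested. Without the 3 libraries together these were 0.0962 (Akap3), −0.0268 (Adcy5), 0.0772 (Prkaca), −0.2357 (Prkacb), −0.1409 (Prkar2a), 0.0481 (Pde6g) and −0.252 (Akap5). With the replicate block they were −0.0483 (Adcy3), −0.2894 (Prkacb), −0.0167 (Prkar1b), −0.5309 (Prkar2a) and −0.0682 (Akap5). In the same 6 libraries with no replicate block they were −0.0435 (Adcy3), −0.2604 (Prkacb), −0.0164 (Prkar1b), −0.4875 (Prkar2a), −0.001 (Pde1b) and −0.173 (Akap5). Removing the length trend gave −0.0066 (Adcy2), −0.0622 (Adcy3) and −0.0219 (Prkar2a). Adcy3 was at −6e-04 with RLE scaling and −7e-04 with DESeq2, and Adcy10 at 0.1012 with limma-voom. Prkar2a was at −0.0079 with RLE scaling, −0.0107 with DESeq2, −0.0827 with limma-voom and −0.002 among protein-coding genes. On log2(FPKM + 1), filtered or not, Prkacb was at −0.0576 and Prkar2a at −0.0386, and on log2(FPKM + 0.1) at −0.0879 and −0.1451. Leaving out 1 library gave −0.048 to 0.163 for Akap8l, −0.5594 to 0.2416 for Adcy10, −0.0514 to 0.081 for Adcy3, −0.0566 to 0.0395 for Prkaca, −0.3084 to 0.5867 for Prkacb, −0.4551 to 0.4631 for Prkar2a, −0.5491 to 0.1601 for Adcy1 and −0.1891 to 0.6605 for Akap5. Adcy7, Adcy10, Pde6g, Akap3 and Akap14 rest on few reads.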
